A study of Mus musculus with 2 samples.

Results

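Ccn1, Ccn2, Ankrd1, F3, Ajuba, Amotl2, Lats2, Ptpn14 and Nuak2 are commonly used as target genes of the transcriptional coactivators YAP and TAZ. These 9 of the 32285 listed genes were chosen by symbol, and each symbol matched 1 row. They were followed in 2 single-cell libraries of mouse lung, 1 of postnatal day 10 (P10) and 1 of fetal lung (E18.5). Both came from animals in which a tamoxifen-inducible Cre recombinase driven by Cdh16 switches on the red reporter tdTomato. The sample labels give the genotype as Cdh16CreERT2;tdTomatoflox/flox, whereas the design text gives Cdh16CreERT2/wt;R26-tdTomatoflox/wt. Pregnant females received tamoxifen from E12.5, either by injection of 0.1 mg per kg body weight or in food at 0.4 g per kg, and the route of each library is not given. Red cells were sorted from the population stained for the epithelial surface protein CD326. The labels name alveolar epithelium for both libraries and embryonic lung even for P10. How many animals entered a library is not given, and neither library has a replicate.

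In the Hippo pathway a kinase cascade ending in LATS1 and LATS2 phosphorylates YAP and TAZ and keeps them out of the nucleus. When the cascade is off, for example in stretched or spread cells, YAP and TAZ enter the nucleus and act through TEAD proteins bound to DNA. Several targets encode inhibitors of the pathway, so that activity feeds back on itself. In the lung, YAP and TAZ are known for their part in the formation of alveolar type 1 (AT1) cells, the thin cells of gas exchange, from progenitors and from surfactant-producing type 2 (AT2) cells.

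After filtering, 14086 of 14503 barcodes were kept at P10, with a median of 10250.5 unique molecular identifiers (UMIs) per cell, and 12027 of 12739 in the E18.5 library, where the median was 8959. Cells were clustered without the 9 genes and without other pathway genes, and clusters were named from marker genes. The P10 library held 9564 AT2-like cells, 1225 cells of a transitional-like cluster with AT2 and keratin-type markers, and 246 cells with both AT1 and AT2 markers. No cluster was AT1-like alone at P10. The E18.5 library held 3748 AT1-like and 3660 AT2-like cells, with median depths of 5014.5 and 10891 UMIs, and 821 mixed cells, with 18802 UMIs. In spite of the sort, endothelial, mesenchymal and immune cells were present in both libraries. A cell barcode occurred in both libraries 52 times, 0.369% of P10 cells and 0.432% of E18.5 cells.

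The DNA motif bound by TEAD proteins was looked for in the promoters, defined as 250 bases before to 50 bases after the RefSeq start. CATTCC or its reverse complement GGAATG was found in the promoters of 6 of the 7 members with an entry, 6 of their 8 listed promoters, against 14.7% of all 32851 promoters (4817). A match is a description of the letters, not a binding site. Ccn2 and Nuak2 had no entry. The 5 promoters below are printed because they carry the motif upstream of the start, with the motif in capitals. Each is written 5′ to 3′ on the strand of the gene.
Ccn1 (GRCm38.p6, chr3:145649936-145650235, minus strand): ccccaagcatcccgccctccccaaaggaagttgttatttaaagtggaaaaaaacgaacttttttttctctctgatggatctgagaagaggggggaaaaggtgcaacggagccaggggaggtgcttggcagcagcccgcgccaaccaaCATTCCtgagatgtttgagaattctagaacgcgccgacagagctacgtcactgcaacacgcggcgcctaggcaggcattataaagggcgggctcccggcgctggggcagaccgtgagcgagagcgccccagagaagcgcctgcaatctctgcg
Ajuba (GRCm38.p6, chr14:54577612-54577911, minus strand): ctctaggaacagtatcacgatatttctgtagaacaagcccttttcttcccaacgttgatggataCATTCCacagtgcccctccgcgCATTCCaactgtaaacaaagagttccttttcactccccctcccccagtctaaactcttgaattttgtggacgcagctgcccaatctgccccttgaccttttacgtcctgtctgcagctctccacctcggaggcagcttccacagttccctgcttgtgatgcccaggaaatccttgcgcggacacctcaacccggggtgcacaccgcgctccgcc
Amotl2 (GRCm38.p6, chr9:102717554-102717853, plus strand): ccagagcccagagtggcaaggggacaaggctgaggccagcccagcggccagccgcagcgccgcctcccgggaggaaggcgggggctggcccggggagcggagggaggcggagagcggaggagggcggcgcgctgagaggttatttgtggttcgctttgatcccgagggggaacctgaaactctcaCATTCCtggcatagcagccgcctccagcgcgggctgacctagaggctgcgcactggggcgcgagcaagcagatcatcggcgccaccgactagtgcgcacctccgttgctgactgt
Ptpn14 (GRCm38.p6, chr1:189728018-189728317, plus strand): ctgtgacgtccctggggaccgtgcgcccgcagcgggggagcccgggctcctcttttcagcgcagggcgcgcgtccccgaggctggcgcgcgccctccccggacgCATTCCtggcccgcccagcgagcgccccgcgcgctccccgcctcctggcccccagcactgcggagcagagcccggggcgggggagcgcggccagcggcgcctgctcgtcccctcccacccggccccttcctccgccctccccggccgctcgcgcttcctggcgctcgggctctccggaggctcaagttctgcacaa
Ankrd1 (GRCm38.p6, chr19:36119795-36120094, minus strand): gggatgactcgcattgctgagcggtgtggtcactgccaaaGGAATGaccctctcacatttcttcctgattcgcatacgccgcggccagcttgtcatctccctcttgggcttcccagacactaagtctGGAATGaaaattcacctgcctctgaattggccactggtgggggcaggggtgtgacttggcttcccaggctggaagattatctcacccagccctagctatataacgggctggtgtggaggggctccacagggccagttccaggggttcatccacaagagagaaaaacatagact
The motif began 103 bases before the start in Ccn1, 65 in Amotl2 and 146 in Ptpn14. Ajuba held it 2 times, at 186 and 164 bases, and Ankrd1 held it 2 times, at 210 and 123 bases. In Lats2 it lay 4 bases after the start of 1 of 2 listed promoters, and the other had none. The F3 promoter had no such motif. It carried 2 matches to TGANTCA, the AP-1 motif, 146 and 135 bases before the start, a motif that is its own reverse complement and was present in 7.81% of all promoters and in no other member's. The TEAD motif was also found in 4 of 5 genes (6 of 8 promoters) among the effectors and DNA-binding partners and in 2 of 5 genes of the kinase core, in 2 of 9 other YAP and TAZ targets, in 2 of 11 upstream and scaffold genes and in 1 of 14 immediate-early and stress genes. The AP-1 motif was searched after values of these data had been seen.

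Levels are UMIs summed over a class and scaled to a common library total (CPM). The intervals are at 95% and take in counting error alone. With 1 library per age, no test was made, and a ratio of at least 2 was called higher or lower. Because free RNA reaches every droplet, each level is set beside that of the immune clusters with least alveolar RNA, which comprised 865 cells in 3 clusters at P10 and 371 myeloid-like cells in 3 clusters at E18.5. The immune clusters of P10 had a median depth of 4088 UMIs and those of E18.5 of 12445 UMIs. These clusters were not free of alveolar RNA. On a scale where 0 is the level in clusters with little of it and 1 the highest cluster, AT2 markers reached 0.206 in the neutrophil-like cluster of P10 and 0.134 in the largest of these E18.5 clusters, of 215 cells, where 8 AT2 markers were raised. The immune level is thus a comparison and not a floor.

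**Figure D1:**
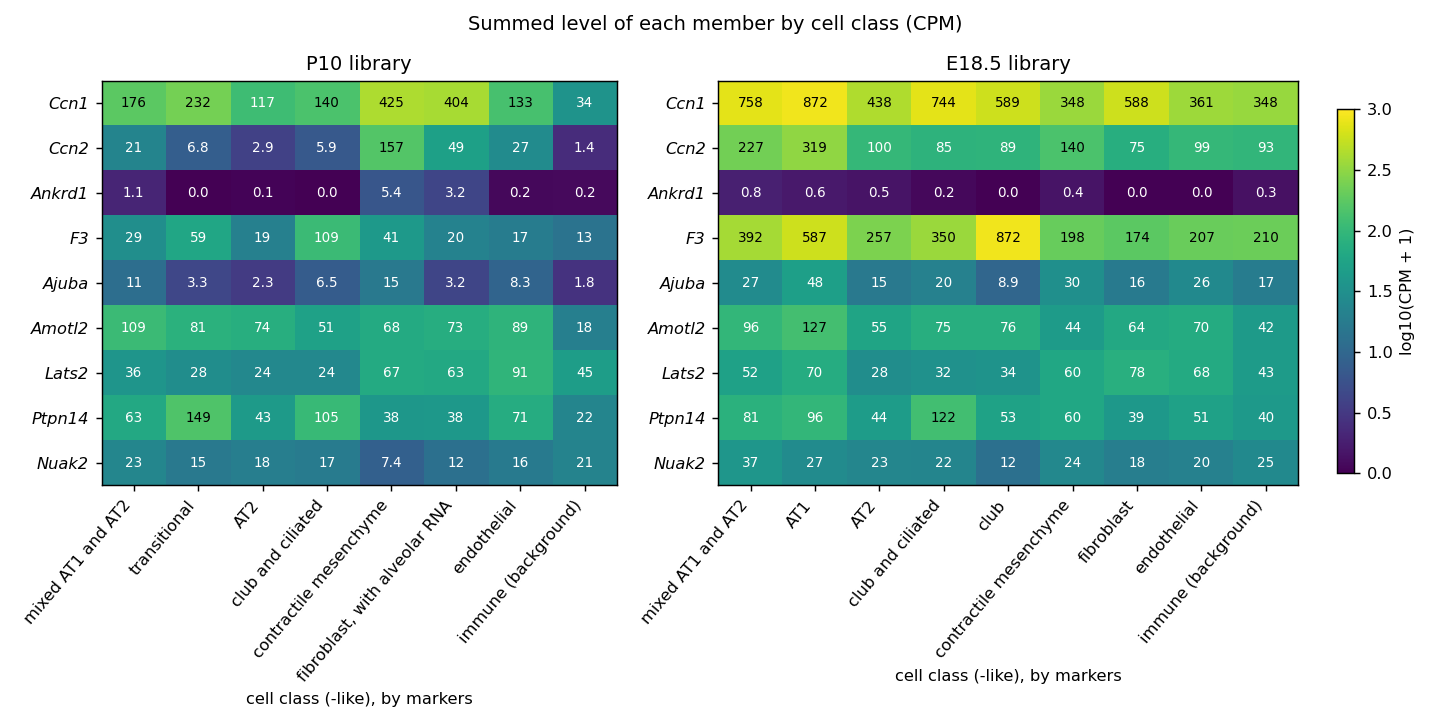
Summed level of the 9 genes (rows) in each cell class (columns) of the P10 library, left, and the E18.5 library, right; numbers are CPM and colours log10(CPM + 1). Ccn2 stood at 2.85 CPM in P10 AT2-like cells and 319 CPM in E18.5 AT1-like cells, whereas Lats2 in P10 classes lay between 24.0 and 91.5 CPM.

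At E18.5 most of the genes were higher in AT1-like than in AT2-like cells. Of the 8 measured members, 6 were at least 2-fold higher in AT1-like cells and 0 were lower, where 10.7% of all 8326 measured genes were higher and 7.47% lower. The median log2 ratio of the members was 1.196, against 0.29 for all measured genes. With the 50 most abundant genes left out of the totals, 3 members were at or above 2-fold, Ccn2 and Ajuba with a log2 ratio of 1.44 each and Lats2 with 1.07. F3 and Amotl2 then had 0.96 each and Ptpn14 0.88. The median of the members was 0.96 on that scale, against 0.04 for all genes. On that scale 580 genes were higher and 927 lower, against 889 higher and 622 lower on the main one.

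Among the secreted and surface proteins, Ccn2, which encodes a matricellular protein formerly named CTGF, differed most. It stood at 319 CPM (312 to 326) in AT1-like cells and 99.8 CPM (97.0 to 103) in AT2-like cells, a ratio of 3.20 (3.08 to 3.32). The pooled AT2-like level was close to the immune level of 93.4 CPM (85.7 to 102), but the 4 AT2-like clusters lay on both sides of it, from 29.5 to 179 CPM. F3, the receptor that starts coagulation, had 587 CPM in AT1-like and 257 CPM in AT2-like cells, a ratio of 2.29 (2.23 to 2.34), beside 210 CPM in immune cells. Ccn1, a matricellular protein related to Ccn2, stood at 872 CPM (860 to 885) in the AT1-like class and 438 CPM (433 to 444) in the AT2-like class. Its ratio of 1.99 (1.95 to 2.03) lay just under the 2-fold line, and the immune level was 348 CPM.

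Ajuba, Lats2, Amotl2 and Ptpn14, which encode proteins that act on the pathway, were all called higher in AT1-like cells on the main scale. Ajuba, a LIM-domain scaffold that restrains LATS kinases, stood at 48.3 CPM in AT1-like and 15.1 CPM in AT2-like cells, a ratio of 3.19 (2.90 to 3.51). Lats2, the kinase that phosphorylates YAP and TAZ, gave 70.2 CPM in AT1-like and 28.4 CPM in AT2-like cells, a ratio of 2.48 (2.30 to 2.66). Amotl2, an angiomotin family protein that holds YAP at junctions, had 127 CPM in AT1-like and 55.2 CPM in AT2-like cells, a ratio of 2.30 (2.18 to 2.42). Ptpn14, a tyrosine phosphatase that binds YAP, had 96.0 CPM in AT1-like and 44.4 CPM in AT2-like cells, a ratio of 2.16 (2.04 to 2.30). In immune cells these genes stood at 17.0 CPM for Ajuba, 43.4 CPM for Lats2, 42.0 CPM for Amotl2 and 40.1 CPM for Ptpn14, so that for Ajuba, Lats2 and Ptpn14 the AT2-like level was no higher than the highest immune cluster.

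Nuak2, an AMPK-related kinase, did not differ by 2-fold, with 27.1 CPM in AT1-like and 22.5 CPM in AT2-like cells, a log2 ratio of 0.26 that ran from -0.14 to 0.74 over the processing alternatives. Immune cells had 25.4 CPM, so both alveolar classes lay near the immune level for this gene. Ankrd1, a muscle ankyrin repeat protein, was near absent from the data. It gave 14 UMIs in AT1-like cells (0.615 CPM, 0.336 to 1.03) and 22 UMIs in AT2-like cells (0.455 CPM, 0.285 to 0.689), and no fold was read from it.

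The AT1-like clusters of E18.5 differed among themselves, and not in the same way for each gene. Across the 4 clusters Ccn1 ranged from 252 to 1297 CPM and Ccn2 from 146 to 435 CPM, while F3 ranged only from 505 to 664 CPM and Lats2 from 60.8 to 84.6 CPM. The cluster with most Ccn2, 825 cells, also had most Ccn1 and Nuak2 among AT1-like clusters. Against the other AT1-like cells, Nuak2 in that cluster was 2.13-fold higher (1.81 to 2.50), Ccn1 1.99-fold (1.93 to 2.05) and Ccn2 1.68-fold (1.60 to 1.76), while Ptpn14, Lats2 and Ajuba had ratios of 0.957, 1.03 and 0.916. Nuak2 was the only member called there, where 1.72% of all genes were higher and 0.677% lower, and the cluster was picked for its Ccn2. The cluster with least Ccn1, 539 cells, had the lowest Ccn2 and Nuak2 of the 4 and, at 84.6 CPM, the highest Lats2.

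Immediate-early and stress genes, which cells switch on within minutes and which tissue digestion is known to raise, also differed between these clusters. Their share of UMIs was 1.14% in the cluster with most Ccn1 and 0.408% in the cluster with least. Another AT1-like cluster, of 718 cells, was shallow, with a median of 2027.5 UMIs, and had 1068 CPM of Ccn1 and a share of 0.603%. The part of these genes and of depth in the Ccn1 levels was not tested. Between the classes as a whole the shares were alike, at 0.803% in AT1-like cells and at 0.829% in AT2-like ones. Without the 25% of cells of each class with the highest share, 6 members were called higher in AT1-like cells. The part of these genes in the ratios between the classes was not tested.

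**Figure D2:**
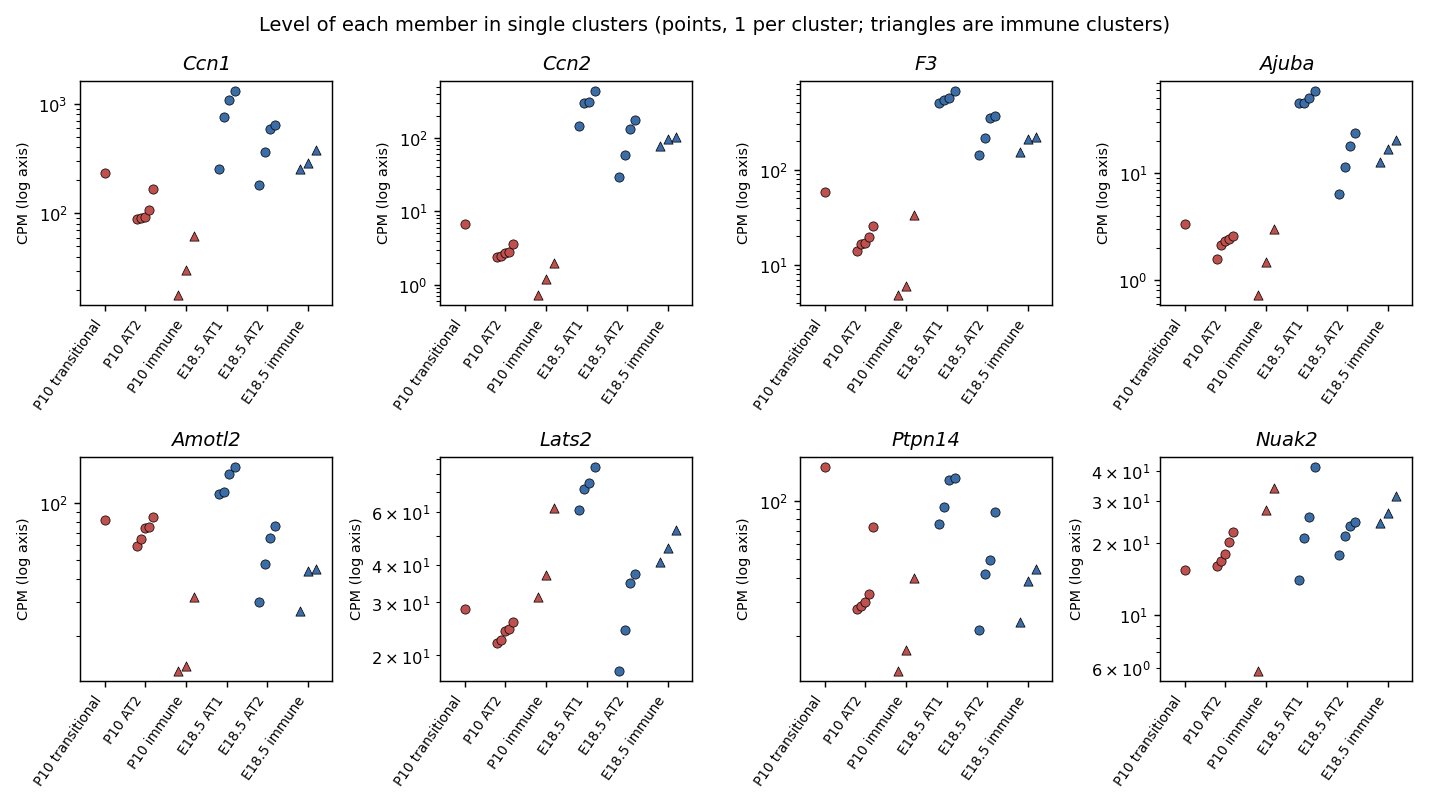
Level (CPM, log axis) of 8 genes in single clusters of alveolar and immune cells; each point is 1 cluster, red for P10 and blue for E18.5, and triangles are the immune clusters. For Ccn2 the 4 AT1-like clusters of E18.5 ran from 146 to 435 CPM and the 5 AT2-like clusters of P10 from 2.39 to 3.56 CPM.

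AT2-like clusters of E18.5 were spread on both sides of the immune level. Their Ccn1 was 180, 366, 585 and 634 CPM, against 253 to 379 CPM in the immune clusters, so 2 lay above that range, 1 within it and 1 below. Ccn2 in the same order of clusters was 29.5, 59.6, 131 and 179 CPM, beside 77.7 to 102 CPM in immune clusters, so 2 lay above that range and 2 below. The cluster with 634 CPM of Ccn1 carried some AT1 marker RNA, at 0.222 on a scale where 1 is the library's highest cluster. Mixed cells of E18.5, with markers of both types, lay between the classes for Ccn1 (758 CPM), Ccn2 (227 CPM), F3 (392 CPM) and Ajuba (27.0 CPM), and above both for Nuak2 (37.2 CPM). The median depth of these mixed cells, 18802 UMIs, was above that of either class. Doublets were not removed, and their part in the mixed levels was not tested.

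Between the ages, AT2-like cells could be compared, and the genes fell into groups that behaved differently. Of 8 measured members 0 were higher and 4 lower at P10, where 15.0% of 8428 genes were higher and 11.4% lower. The members' median log2 ratio was -1.12, against 0.16 for all genes. That median lay in a gap between the 4 lower genes and the other 4, and where 7 members were measured, 3 of them lower, it was -0.33 (at a 20 CPM minimum), -0.22 (Leiden resolution 0.5) and -0.24 (clustered with the pathway genes). Ccn2 was at 2.85 CPM (2.55 to 3.18) in P10 cells and 99.8 CPM in E18.5 cells, a log2 ratio of -5.13. These levels did not overlap between clusters of the ages: the highest P10 cluster had 3.56 CPM of Ccn2 and the lowest E18.5 cluster 29.5 CPM. F3 was at 19.2 CPM in P10 cells and 257 CPM in E18.5 cells, a log2 ratio of -3.74. Ajuba had 2.31 CPM in P10 cells and 15.1 CPM in E18.5 cells, a log2 ratio of -2.72. Ccn1 had 117 CPM (115 to 119) in P10 cells and 438 CPM in E18.5 cells, a log2 ratio of -1.91. Pooled over clusters, the E18.5 levels of Ccn2 and Ajuba did not exceed the highest immune cluster there, and those of Ccn1 and F3 were 1.26 and 1.22 times the immune level. The part of free RNA in these differences was not tested. The gap for Ccn1 was narrow between single clusters, with 167 CPM in the highest of P10 and 180 CPM in the lowest of E18.5.

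Amotl2, Ptpn14, Lats2 and Nuak2 differed by less than 2-fold between the ages. Amotl2 stood at 74.1 CPM in P10 and 55.2 CPM in E18.5 AT2-like cells, a ratio of 1.34 (1.29 to 1.40). Ptpn14 stood at 42.6 CPM in P10 and 44.4 CPM in E18.5 AT2-like cells, a ratio of 0.959 (0.912 to 1.01). Lats2 and Nuak2 had ratios of 0.851 (0.797 to 0.909) and 0.798 (0.741 to 0.859). Over the processing alternatives the log2 ratio changed sign for Lats2 (-0.38 to 0.29) and Ptpn14 (-0.52 to 0.50). At P10, Amotl2 in AT2-like cells was 4.02 times (3.28 to 4.98) the immune level, Ccn1 3.47 times (2.98 to 4.05) and Ptpn14 1.94 times (1.61 to 2.36). F3, Lats2, Nuak2 and Ajuba in P10 AT2-like cells did not exceed the highest of the 3 P10 immune clusters. Of these, Lats2 and Nuak2 were found in no larger a share of thinned cells than in immune cells. The immune cells held both genes themselves, Lats2 in T and NK-like and Nuak2 in myeloid-like cells. Whether the AT2-like levels of these 2 genes are background was not tested. Ankrd1 gave 7 UMIs in these 9564 cells.

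The ratios between the ages moved with gene length across all genes, with a median log2 ratio of -0.55 in the shortest 10% and 0.87 in the longest 10%. Ccn1 and Ccn2, with 3.01 and 3.24 kb from first to last base, belonged to the shortest class, and Ptpn14, with 148 kb, to the longest. Against genes of like length the log2 ratio was -4.58 for Ccn2, -3.50 for F3, -2.47 for Ajuba and -1.35 for Ccn1, and 0.54 for Amotl2, -0.21 for Nuak2, -0.71 for Lats2 and -0.93 for Ptpn14. The sources used here do not say whether intronic reads entered the counts.

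The ages were also compared in other cell classes. The contractile mesenchyme-like class, named by smooth muscle and pericyte markers, was 2 clusters at P10, the larger (181 of 314 cells) led by Eln and Aspn. At E18.5 it was 1 cluster led by Acta2 and Tagln, with 8 AT2 markers raised. The part of this makeup in the ratios was not tested. In these cells Ccn1 had 425 CPM at P10 and 348 CPM at E18.5, a ratio of 1.22 (1.12 to 1.34). Ccn2 had 157 CPM at P10 and 140 CPM at E18.5, a ratio of 1.12 (0.972 to 1.30). The E18.5 value of Ccn1 equalled the immune level there, while at P10 it was far above the 33.8 CPM of immune cells. F3 was at 40.9 CPM in these cells at P10 and 198 CPM at E18.5, and Nuak2 at 7.38 CPM at P10 and 24.3 CPM at E18.5, so these 2 were called lower, where 10.2% of genes were, although both E18.5 levels lay near the immune levels of 210 and 25.4 CPM. In endothelial-like cells 4 members were lower at P10, where 8.31% of genes were. These were Ccn1, Ccn2, F3 and Ajuba, with log2 ratios of -1.44, -1.87, -3.61 and -1.64, while Amotl2, Lats2 and Ptpn14 had ratios of 1.27 (1.10 to 1.48), 1.35 (1.17 to 1.57) and 1.39 (1.17 to 1.65). The E18.5 endothelial levels of Ccn1 (361 CPM), Ccn2 (99.1 CPM) and F3 (207 CPM) were at the immune level, with ratios to it of 1.04, 1.06 and 0.986, and only that of Ajuba among the 4 exceeded the highest immune cluster. The part of free RNA in these endothelial ratios was not tested. The myeloid-like cells are themselves the immune clusters used for comparison at E18.5 and 1 of the 3 at P10, so their ratios show how the immune level differed between the libraries. There 6 members were lower at P10, where 13.7% of genes were. Ccn1 gave 50 UMIs (30.2 CPM) at P10 against 348 CPM at E18.5, F3 10 UMIs (6.04 CPM) at P10 against 210 CPM at E18.5, and Ccn2 only 2 UMIs at P10 against 540 at E18.5. Over the whole libraries Ccn1, Ccn2, F3 and Ajuba were again the 4 called lower, where 13.5% of genes were, with 0 called higher, where 12.1% were. Among all genes, 1114 were higher and 1242 lower there, and 1521 higher and 1133 lower without the 50 most abundant genes, which moved the median of all genes to 0.15, against 0.02.

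**Figure D3:**
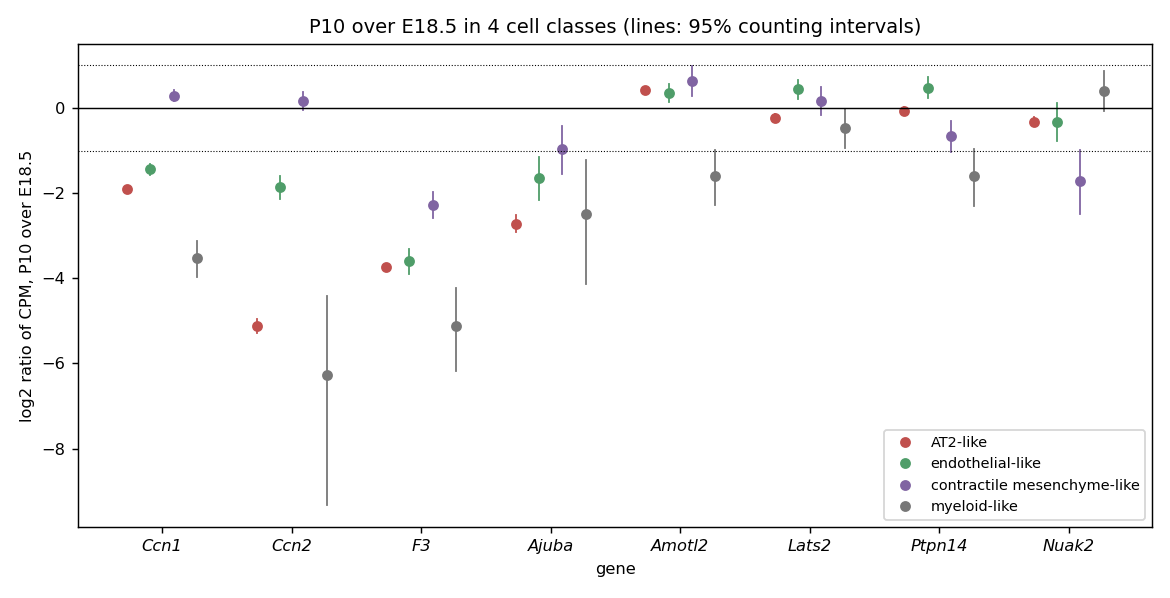
Log2 ratio of CPM, P10 over E18.5, of 8 genes in 4 cell classes (points) with counting intervals (lines); dotted lines mark 2-fold. The myeloid-like cells also serve as immune clusters for comparison. F3 lies below -2 in every class, whereas Ccn1 and Ccn2 lie at 0.29 and 0.17 in contractile mesenchyme-like cells and at -1.91 and -5.13 in AT2-like cells.

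Within P10 the order of the classes differed from gene to gene. Ccn2 was highest in contractile mesenchyme-like cells, at 157 CPM, followed by fibroblast-like cells that carried alveolar RNA (49.4 CPM), endothelial-like cells (27.2 CPM) and mixed alveolar cells (21.4 CPM). It was at 6.78 CPM in transitional-like, 5.93 CPM in club and ciliated-like and 2.85 CPM in AT2-like cells. Ccn1 was also highest in contractile (425 CPM) and fibroblast-like cells (404 CPM), which did not differ beyond their counting error, then in transitional-like cells (232 CPM). Ankrd1 gave 16 of its 35 P10 UMIs in contractile mesenchyme-like cells, 5.37 CPM (3.07 to 8.71). Lats2 was highest in endothelial-like cells, at 91.5 CPM, and at 61.8 CPM in T and NK-like cells against 24.1 CPM in AT2-like cells. Nuak2 was highest in myeloid-like cells, at 33.8 CPM without and 36.4 CPM with alveolar RNA. F3 was highest in club and ciliated-like cells, at 109 CPM. Lats2 in immune cells exceeded its level in AT2-like cells at both ages.

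At E18.5 the order was flatter. F3 was highest in club-like cells, the secretory cells of the airway, at 872 CPM, and otherwise in AT1-like cells at 587 CPM. It stood at 174 CPM in fibroblast, 198 CPM in contractile, 207 CPM in endothelial and 210 CPM in immune cells, which were close to each other. Ptpn14 was highest in the club and ciliated-like cluster, at 122 CPM, and Lats2 in fibroblast-like cells, at 77.5 CPM, with AT1-like cells next. Ccn1 in the club and ciliated-like cluster, 744 CPM, lay near the 872 CPM of AT1-like cells, whereas its Ccn2, 85.1 CPM, was below the immune level of 93.4 CPM.

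The transitional-like cluster of P10 was set against AT2-like cells of the same library. Of 6 measured members 2 were higher and 0 lower, where 1.45% of 8026 genes were higher and 0.150% lower. Ptpn14 was at 149 CPM in transitional-like and 42.6 CPM in AT2-like cells, a ratio of 3.50 (3.34 to 3.67). F3 was at 58.9 CPM in transitional-like and 19.2 CPM in AT2-like cells, a ratio of 3.07 (2.85 to 3.31). Ccn1, with 232 CPM in transitional-like and 117 CPM in AT2-like cells, had a ratio of 1.98 (1.92 to 2.05), just short of 2-fold. Ccn2 had a ratio of 2.38 (1.92 to 2.93) at 6.78 CPM in transitional-like and 2.85 CPM in AT2-like cells, too low to count as measured. Amotl2, Lats2 and Nuak2 differed little, with ratios of 1.09, 1.18 and 0.858, and Ankrd1 had 0 UMIs in transitional-like cells, which allows up to 0.165 CPM. The share of immediate-early UMIs was 2.19% in transitional-like and 1.48% in AT2-like cells, and its part in these ratios was not tested. Without the 25% of cells of each class with the highest share, 3 members were called.

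Among AT2-like clusters of P10, 1 cluster of 2487 cells stood apart for the same genes. Ptpn14 was at 73.3 CPM there and between 27.7 and 32.9 CPM in the other 4. Ccn1 was at 167 CPM there and between 88.7 and 107 CPM in the others, and F3 at 25.7 CPM against 14.1 to 19.5 CPM. Its share of immediate-early UMIs, 1.95%, was also the highest of the 5, the others lying at 1.35% or below. It also had 3 transitional markers raised, against 0 in the other AT2-like clusters. Lats2, at 22.0 to 25.9 CPM, and Ajuba, at 1.55 to 2.58 CPM, varied little across the 5 clusters.

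The P10 cells with both AT1 and AT2 markers, the closest to AT1 in that library, showed another pattern. Ccn2 was at 21.4 CPM in mixed and 2.85 CPM in AT2-like cells, a ratio of 7.51 (5.62 to 9.90), and Ajuba at 11.2 CPM in mixed and 2.31 CPM in AT2-like cells, a ratio of 4.88 (3.27 to 7.06). These 2 were the only members called, where 2.25% of genes were higher and 0.231% lower. Ccn1, F3, Amotl2, Lats2 and Ptpn14 had ratios between 1.47 and 1.52. Ccn2 and Ajuba were also the members with the largest ratio of AT1-like to AT2-like cells at E18.5, and the levels differed: Ccn2 in the mixed cells of P10 was at 21.4 CPM and in those of E18.5 at 227 CPM.

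Other genes of the pathway were taken from lists. In the comparison of AT1-like with AT2-like cells 10.7% of all measured genes were higher and 7.47% lower, with a median log2 ratio of 0.29. Of 14 other YAP and TAZ targets, 7 were measured there, and 2 were higher and 0 lower, with a median log2 ratio of 0.62. These were Tgfb2, a growth factor, at 120 CPM in AT1-like and 34.2 CPM in AT2-like cells, and Dock5, a guanine exchange factor, at 45.5 CPM in AT1-like and 18.1 CPM in AT2-like cells. Of 11 measured upstream and scaffold genes 5 were higher and 0 lower, among them Wwc2, at 362 CPM in AT1-like and 120 CPM in AT2-like cells, and Frmd6, at 128 CPM in AT1-like and 52.4 CPM in AT2-like cells. The kinase core had 0 of 6 genes called in either direction. Among 6 measured effectors and DNA-binding partners Tead1 and Tead4 were higher, with log2 ratios of 1.60 and 1.87. Wwtr1, which encodes TAZ, had 426 CPM in AT1-like and 251 CPM in AT2-like cells, a log2 ratio of 0.76.

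The same lists were followed in AT2-like cells, P10 over E18.5, where 0 of the 8 measured members were higher and 4 lower, and no difference between lists was tested. Of all measured genes 15.0% were higher at P10 there and 11.4% lower. Of 8 measured other targets 2 were higher and 2 lower. Tgfb2 was at 3.26 CPM in P10 and 34.2 CPM in E18.5 cells and Gadd45b at 108 CPM in P10 and 280 CPM in E18.5 cells, while Dock5 and Rbms3 were higher at P10, with log2 ratios of 1.86 and 1.10. Upstream and scaffold genes had 4 higher and 1 lower of 11, and the kinase core 0 of 6. Of the effectors 1 of 6 was called: Yap1 itself was higher, at 83.6 CPM in P10 and 36.6 CPM in E18.5 cells. Unlike those of the members, the ratios of these list genes were not set against genes of like length. Of 16 immediate-early and stress genes 4 were higher at P10, led by Fosb at 2142 CPM in P10 and 157 CPM in E18.5 cells, and 3 were lower. Between transitional-like and AT2-like cells no gene of the 4 pathway lists was called, and 1 of 15 immediate-early genes was higher. Of all measured genes 1.45% were higher in that comparison and 0.150% lower.

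Spread between cells was measured after every cell was thinned to 3000 UMIs. In 3005 AT1-like cells of E18.5, Ccn1 averaged 2.50 UMIs, and 30.7% of cells had none, where a Poisson distribution of the same mean gives 8.21%. Its variance was 2.93 times its mean, and 2.48 times within clusters. Single cells held up to 19 UMIs, and the top 10% of cells held 33.7% of all Ccn1 UMIs. Ccn2 averaged 0.927 UMIs with a variance 2.02 times the mean, and F3 averaged 1.74 UMIs with a variance 1.90 times the mean. Ajuba, Lats2, Ptpn14 and Amotl2 were close to Poisson in the same cells, with variances between 1.05 and 1.10 times the mean. The excess coefficient of variation, which takes out counting noise, was 1.05 for Ccn2, 0.878 for Ccn1 and 0.717 for F3, and 0.495 to 0.545 for these 4 regulators. Nuak2 departed from them with 1.195, from only 244 UMIs and a variance 1.12 times the mean.

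**Figure D4:**
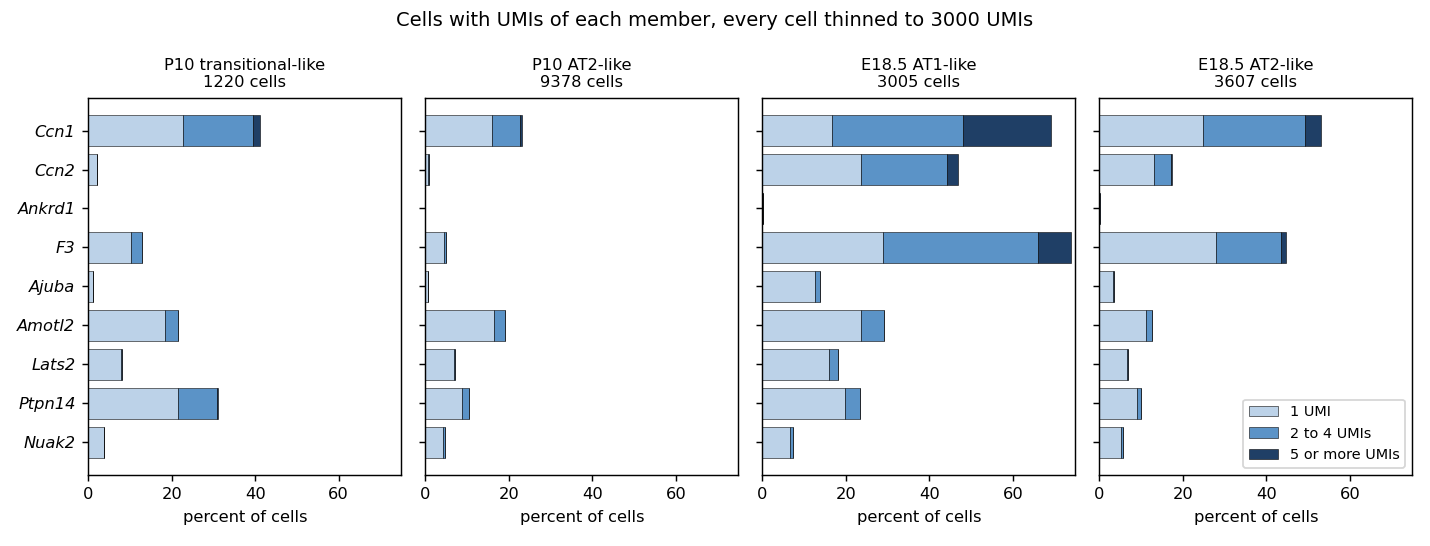
Percent of cells with 1, 2 to 4 and 5 or more UMIs of each gene after thinning to 3000 UMIs per cell, for P10 transitional-like and AT2-like cells and E18.5 AT1-like and AT2-like cells. Of P10 AT2-like cells 0.416% held 5 or more Ccn1 UMIs, and of E18.5 AT1-like cells 21.1%.

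In 9378 thinned AT2-like cells of P10, Ccn1 was found in 23.2% of cells, against 7.28% of immune cells, with a variance 1.74 times the mean and an excess coefficient of variation of 1.46, which for the sparser F3 and Nuak2 was 1.81 and 2.30. Amotl2 was found in 19.2% of these AT2-like cells, against 4.53% of immune cells, and its variance was 1.09 times the mean. Before thinning, a Ccn1 UMI was seen in 49.3% of AT2-like and 12.5% of immune cells of P10. At E18.5 the thinned share of cells with Ccn1 was 69.3% in AT1-like, 53.1% in AT2-like and 46.6% in immune cells, and for Ccn2 46.9% in AT1-like, 17.4% in AT2-like and 16.2% in immune cells. Contractile mesenchyme-like cells of P10 had overdispersed Ccn1 and Ccn2 too, with variances 2.80 and 2.49 times the mean in 294 cells.

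Counted together, AT1-like cells of E18.5 held a mean of 2.82 of the 9 genes per thinned cell, and 30.2% held 4 or more. The mean was 1.22 genes in transitional-like and 0.711 genes in AT2-like cells of P10, where 46.9% of AT2-like cells held none. E18.5 AT2-like cells held 1.54 and E18.5 myeloid-like cells 1.38.

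Co-detection was compared with the number of cells expected if the genes were independent within each cluster. In AT1-like cells of E18.5, Ccn1 and Ccn2 were found together in 1183 of 3005 cells, against 1033 expected, a ratio of 1.15. A Ccn2 UMI was present in 56.8% of cells with Ccn1 and in 24.5% of cells without it. Across these cells of 1 library, at equal depth, the Pearson correlation of log values was 0.37 and the Spearman correlation 0.38. These shares and correlations pool the 4 AT1-like clusters, so differences between clusters enter them. Nuak2 was found with Ccn2 in 142 cells against 112 expected, a ratio of 1.27. That was the highest ratio among the 6134 genes found in 5 to 95% of these cells and set against Ccn2. Nuak2 itself was found in only 7.35% of the cells, and Ppa1 ranked 2, also at 1.27. Among the genes compared in this way, Ccn2 ranked 9 in its ratio with Ccn1, and Ccn1 ranked 74 in its ratio with Ccn2. The Y-linked genes Ddx3y and Eif2s3y ranked 5 and 7 in their ratio with Ccn1, at 1.15 each. The part of differences between animals in these ratios was not tested. Ajuba and Amotl2 had a ratio of 1.26, with 154 cells. Ptpn14 and Ccn1 were found together less than expected, in 440 cells against 472, a ratio of 0.932. Over the 28 pairs with at least 20 expected cells, 17 were above expected and the median ratio was 1.01, so most pairs were found together about as often as independent genes would be.

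**Figure D5:**
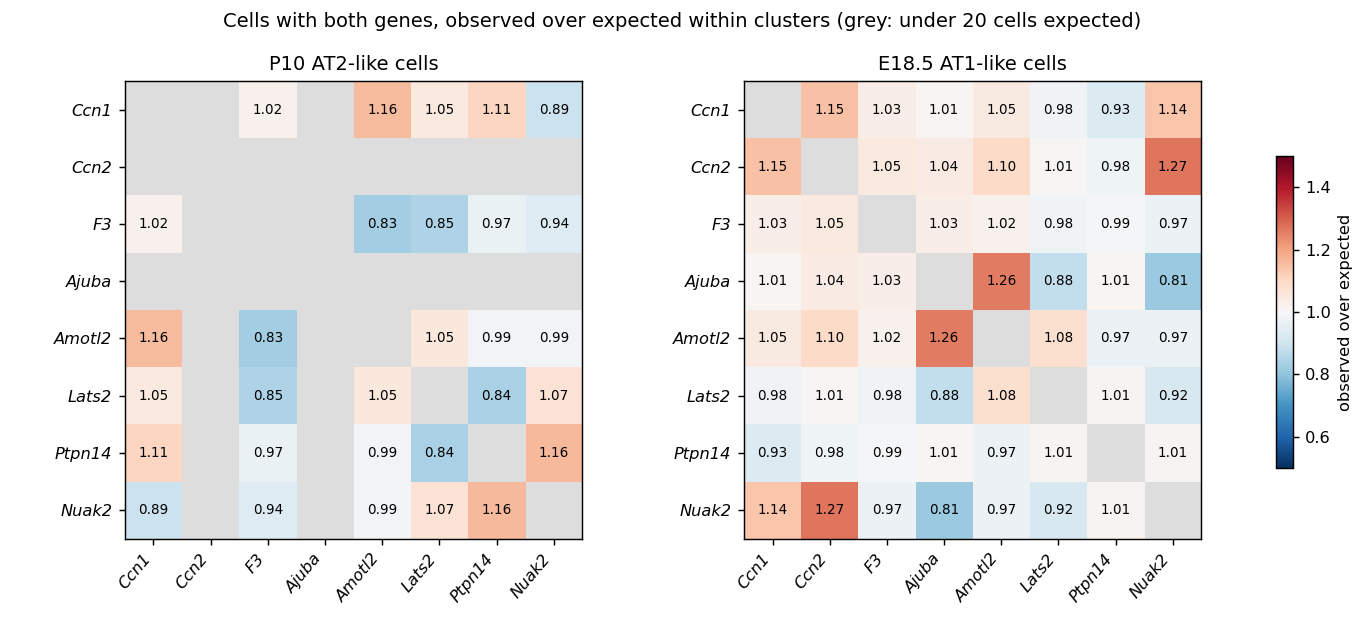
Observed over expected number of cells with both genes, within clusters after thinning, in P10 AT2-like cells, left, and E18.5 AT1-like cells, right; grey pairs had under 20 cells expected. In AT1-like cells the highest ratios were those of Ccn2 with Nuak2 (1.27), Ajuba with Amotl2 (1.26) and Ccn1 with Ccn2 (1.15).

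AT1-like cells with Ccn1, Ccn2, F3 or Amotl2 held a larger share of immediate-early UMIs than those without, and cells with Ptpn14 did not. The median share of immediate-early UMIs was 0.895% in AT1-like cells with Ccn1 and 0.348% in those without it. For Ccn2 it was 0.910% with and 0.474% without, for F3 0.747% with and 0.572% without, and for Amotl2 0.750% with and 0.670% without. For Ptpn14 it was 0.606% with and 0.725% without. These medians pool the AT1-like clusters, which differed in Ccn1 level and in immediate-early share. Of 16 immediate-early genes, 11 were co-detected with Ccn1 above the 95th percentile of all genes, and 6 with Ccn2. For F3, Amotl2 and Ptpn14 the number was 0. Without the 25% of cells with most immediate-early UMIs, the ratio of Ccn1 with Ccn2 was 1.22. That ratio also moved with thinning depth, and the part of immediate-early genes in the co-detection was not tested.

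In AT2-like cells of P10, 7 of 15 usable pairs were above expected and the median ratio was 0.988. Ccn1 with Amotl2, from 494 cells against 426 expected, and Ptpn14 with Nuak2 had the highest ratios, both 1.16. Their Pearson correlations were weak, at 0.06 and 0.0031. Among 6032 genes set against Ccn1 in these cells, Amotl2 ranked 48. Of 3 members among them, 2 had a ratio with Ccn1 above the 95th percentile of all genes, 1.09. In transitional-like cells 8 of 9 pairs were above expected, with a median of 1.15 and Pearson correlations no higher than 0.06. In the myeloid-like cells of E18.5 the 3 usable pairs were all above expected, with a median of 1.33.

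Across the 45 clusters of at least 50 cells, 21 of P10 and 24 of E18.5, the genes with profiles most like the members' were sought among 3482 genes. For Ccn2 they were Hspg2 (Pearson 0.948), Cryab, Ehd2, Fbln5 and Cavin3, with 0.770 to 0.960 within the P10 clusters alone and 0.750 to 0.896 within those of E18.5. For Ccn1 they were Hes1 (0.890), Cryab, Col4a5, Ppic and Nbl1, with 0.665 to 0.894 within P10 and 0.501 to 0.814 within E18.5. For the mean of the 9 genes they were Cryab (0.952), Col4a5, Itgb6, Zfyve21 and Nectin3. Clusters of a library share its free RNA and depth, and the difference between libraries enters these values. Within a library, the correlation of Ccn1 with Ccn2 over clusters was 0.712 at P10 and 0.755 at E18.5, and of Ccn1 with Lats2 0.110 at P10 and 0.413 at E18.5.

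The genes have the following positions (GRCm38, GENCODE vM21, first to last base with introns). Ccn1 is at chr3:145646976-145649981, minus strand, and F3 at chr3:121723537-121735048, plus strand. Ccn2 is at chr10:24595442-24598683, plus strand, and Ankrd1 at chr19:36111961-36120099, minus strand. Ajuba at chr14:54567472-54577558 and Lats2 at chr14:57689662-57758388 are both on the minus strand. Amotl2 is at chr9:102716672-102733418, Ptpn14 at chr1:189728268-189876695 and Nuak2 at chr1:132316126-132333488, all on the plus strand.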

How the data were processed

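The matrices were deposited by the authors as UMI counts, not normalized. The file headers name Cell Ranger 7.0.1, and the submitters' processing notes name the build mm10 and Seurat 4.0.0. The labels name a 3' kit. Cells with at least 500 genes, 1000 UMIs and at most 20% mitochondrial UMIs were kept. Scrublet marked 1 cell at P10 (0.00710%) and 2 at E18.5 (0.0166%), so few that the caller has not worked, and doublets remain. Each library was clustered (scanpy 1.11.5, Leiden resolution 1, 2000 variable genes without the members and pathway genes).

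Clusters were named from marker lists by a rule chosen with the clusters in view. Markers had to be detected in at least 25% of cells and at 3 times the 10th percentile of clusters. An alveolar class needed 3 markers and a median level of 0.5, where 0 is that percentile and 1 the highest cluster, and mixed or RNA-carrying clusters reached 0.25. Other classes needed 3 markers and 35% of their list. Shallow clusters without a leading marker stayed unnamed.

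Counts were summed per class and scaled to CPM. Sums carry exact Poisson intervals, shares exact binomial (Clopper-Pearson) intervals and ratios exact conditional binomial intervals, at 95%; a count of 0 allows 3 counts. A gene was measured at 10 CPM in either sum. On simulated sums all 100 genes changed 4-fold were called and 0 unchanged genes, in both comparisons checked, each over at least 7764 genes. The simulated sums held Poisson counting noise alone. They had no differences between libraries or cells and no free RNA, so they check the calculation and not the calls made here. Cells were thinned to 3000 UMIs, leaving out shallower cells. The 9 members are described in every class of at least 50 cells, and other genes are named from the lists or, for likeness over clusters, as the 5 most correlated genes at a mean of 50 CPM. The members and lists were chosen with earlier results of these data known, and the comparisons in endothelial, contractile and myeloid cells, in P10 mixed cells and in the AT1-like cluster highest in Ccn2 were added with the data seen. Promoter sequences are from RefSeq (GRCm38.p6), matched by symbol for 7 of 9 members. Other tools were Python 3.11.15, numpy 2.4.6, scipy 1.17.1 and matplotlib 3.10.9.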

Additional observations from a re-analysis of the deposited data

Results flagged for a closer look

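The following members had a ratio of P10 over E18.5 whose counting interval lay above 1 in 1 cell class and below 1 in another. The difference between classes was not tested, since each age has 1 library. Ccn1 had a log2 ratio of 0.29 in contractile mesenchyme-like cells and -3.53 in myeloid-like cells. Amotl2 had 0.63 in contractile mesenchyme-like cells and -1.60 in myeloid-like cells, where it had 13.9 CPM at P10. Lats2 had 0.44 in endothelial-like and -0.47 in myeloid-like cells. Ptpn14 had 0.47 in endothelial-like and -1.60 in myeloid-like cells. The myeloid-like cells are also the immune clusters used here for comparison, all of them at E18.5 and 1 of 3 at P10, and for all 4 genes the part of free RNA in the myeloid-like ratios was not tested.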

How the results depend on the processing

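Over 290 alternative values of 30 log2 ratios of single members, 155 stayed inside the counting interval of the reported value, 135 moved outside it and 0 called ratios changed sign. Of 110 alternative counts of called members, 108 stayed within 1.5 times the reported count. The count of members higher in AT1-like than in AT2-like cells, 6, became 3 without the 50 most abundant genes in the totals and 2 at a 3-fold threshold. Without cells whose barcode occurs in both libraries, an alternative chosen after seeing the data, the counts were 6, 4, 2 and 4 as reported.

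The excess coefficient of variation in AT1-like cells, reported as 0.878 for Ccn1, 1.05 for Ccn2 and 0.717 for F3, moved as follows. At 5000 UMIs it was 0.793 for Ccn1, 0.958 for Ccn2 and 0.647 for F3, and at 1500 UMIs 0.759 for F3. Without the cluster highest in Ccn2 it was 1.05 for Ccn1, 1.16 for Ccn2 and 0.769 for F3, and without the 25% of cells with most immediate-early UMIs 1.04 for Ccn1. For Ccn1 in P10 AT2-like cells, reported as 1.46, it was 1.52 at 5000 UMIs and 1.51 without that class's cluster highest in Ccn2. The co-detection ratio of Ccn1 with Ccn2 in AT1-like cells, 1.15, was 1.22 at 1500 UMIs, 1.08 at 5000 UMIs, 1.25 without the cluster highest in Ccn2 and 1.22 without the cells richest in immediate-early UMIs. In E18.5 AT2-like cells it was 1.11, and 1.32 at 1500 UMIs. These single values were chosen after the data were seen, in addition to the counts that follow.

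Counts past a threshold depended on thinning. Members with a variance at least 1.5 times the mean numbered 3 in AT1-like cells under each of the 5 alternatives. They numbered 1 in P10 AT2-like cells (0 at 1500 and 2 at 5000 UMIs), 2 in E18.5 AT2-like cells (1 at 1500 UMIs and 1 without the cluster highest in Ccn2) and 1 in transitional-like cells (3 at 5000 UMIs). Pairs with an observed over expected ratio of at least 1.2 numbered 2 in AT1-like cells (0 at 5000 UMIs, 4 without the cluster highest in Ccn2 and 4 without the cells richest in immediate-early UMIs) and 0 in P10 AT2-like cells (2 at 1500 UMIs and 1 without the cluster highest in Ccn2). They numbered 2 in E18.5 AT2-like cells (1 at 5000 UMIs) and 2 in transitional-like cells (1 at 1500 and 0 at 5000 UMIs). The cause of these shifts was not tested.

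No paired analysis was possible because the groups have 1 library each and share fewer than 2 replicate numbers. Age, litter, tamoxifen route and library preparation cannot be told apart from each other. In AT1-like and AT2-like cells Ankrd1 was near absent, while it was at 5.37 CPM in P10 contractile mesenchyme-like cells. In P10 AT2-like cells Ccn2 (2.85 CPM) and Ajuba (2.31 CPM) were low, beside immune levels of 1.37 and 1.77 CPM. The part of free RNA in these levels was not tested.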
